A study of Mus musculus with 24 samples.

Results

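The genes described here are 10 immediate early and stress genes, Fos, Fosb, Jun, Junb, Egr1, Atf3, Nr4a1, Btg2, Ier2 and Hspa1a. They were chosen by name as genes that cells induce within minutes of stimulation and during tissue dissociation. They are 10 of the 19937 genes tested on mouse Gene 1.0 ST arrays. Each was read from the 1 probe set that lists it as its only symbol, so no choice between probe sets was needed. Expression was measured on 24 arrays of sorted mammary cells in 8 groups of 3. The mutant mice were Lgr5-creERT2/PIK3CA H1047R. They carry Cre recombinase fused to a tamoxifen-responsive receptor, expressed where Lgr5 is, and a transgene for an activated p110-alpha subunit of phosphoinositide 3-kinase. The control mice were Lgr5-creERT2 without that transgene, so all 8 groups share the Cre allele and the tamoxifen. All mice were of a mixed FVB/C57BL6 background, and each replicate is a pool of 2 to 3 estrus-synchronised mice, sorted on 3 occasions at 4 weeks after tamoxifen. The tissue is labelled preneoplastic in both genotypes. An age is not given in the sources used here.

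The mutant groups were basal GFP-positive, basal GFP-negative, luminal Sca1-negative GFP-positive and luminal Sca1-positive GFP-positive cells. The control groups were basal GFP-positive, basal GFP-negative, luminal Sca1-negative GFP-negative and luminal Sca1-positive GFP-negative cells. All were CD45 negative. Basal cells were CD24 low and Sca1 negative, and luminal cells were CD24 high. Per the labels GFP marks cells with Lgr5, the transgene or both, so the GFP-positive gate does not hold the same cells in both genotypes: the labels give it as cells expressing H1047R in the mutant and cells expressing Lgr5 in the control. The GFP-negative basal cells of mutant mice are given as lacking both. In the luminal groups, genotype and GFP state cannot be told apart. RNA of 250 cells per array was amplified before labelling. Values are the deposited log2 expression values, so a difference of 1 is a doubling.

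Immediate early genes are transcribed when growth factor, stress or calcium signals reach transcription factors that are already present, such as the serum response factor with its ETS partners and CREB, and no new protein is needed. Many of their products are themselves transcription factors, and their transcripts are short-lived. Enzymatic dissociation and sorting of solid tissue, the mammary gland included, are known to induce the same genes, so levels in sorted cells in general can hold a part from the tissue and a part from the handling. FOS, FOSB, JUN and JUNB are subunits of the AP-1 factor, and ATF3 is a related stress-induced factor. EGR1 is a zinc finger factor and NR4A1 an orphan nuclear receptor. BTG2 is an antiproliferative cofactor, IER2 an early response nuclear protein, and HSPA1A the inducible heat shock protein of the HSP70 family.

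The promoters of Fos, Junb, Nr4a1, Btg2 and Hspa1a are shown because these 5 genes fell in the mutant basal GFP-positive comparison and had a promoter entry. Nr4a1 also rose in both luminal comparisons. Egr1 fell in the basal GFP-positive comparison too, but had no entry. Sequences are from RefSeq (GRCm38.p6), cover the 250 bases before the start site in the table used, and are written 5′ to 3′ on the gene's strand. Of the 10 genes, 8 had an entry, and Egr1 and Ier2 had none. Capitals mark matches on either strand to the cyclic AMP response element TGACGTCA, the shortened form TGACG (a match to the full element also counts for this shortened form, which reads CGTCA where it lies on the other strand), the AP-1 site TGANTCA, the CArG box and the heat shock element GAANNTTC. Fos is at chr12:85473640-85473889 on the plus strand, Junb at chr8:84978749-84978998 on the minus strand, Nr4a1 at chr15:101266596-101266845 on the plus strand, Btg2 at chr1:134079156-134079405 on the minus strand and Hspa1a at chr17:34972157-34972406 on the minus strand.
Fos: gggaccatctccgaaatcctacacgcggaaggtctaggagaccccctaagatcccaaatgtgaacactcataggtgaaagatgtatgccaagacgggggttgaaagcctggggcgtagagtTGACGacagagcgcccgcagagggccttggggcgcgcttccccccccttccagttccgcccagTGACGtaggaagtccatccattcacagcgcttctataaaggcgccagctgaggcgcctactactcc
Junb: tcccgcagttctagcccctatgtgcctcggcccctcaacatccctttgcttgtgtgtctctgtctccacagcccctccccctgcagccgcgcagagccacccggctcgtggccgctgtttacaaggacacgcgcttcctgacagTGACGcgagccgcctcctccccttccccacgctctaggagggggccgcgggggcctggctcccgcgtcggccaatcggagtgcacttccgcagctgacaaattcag
Nr4a1: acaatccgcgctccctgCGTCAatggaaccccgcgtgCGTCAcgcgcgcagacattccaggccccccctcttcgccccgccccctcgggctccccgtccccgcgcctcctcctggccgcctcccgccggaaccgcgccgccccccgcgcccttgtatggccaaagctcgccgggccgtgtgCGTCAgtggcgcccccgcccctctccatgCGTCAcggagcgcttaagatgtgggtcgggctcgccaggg
Btg2: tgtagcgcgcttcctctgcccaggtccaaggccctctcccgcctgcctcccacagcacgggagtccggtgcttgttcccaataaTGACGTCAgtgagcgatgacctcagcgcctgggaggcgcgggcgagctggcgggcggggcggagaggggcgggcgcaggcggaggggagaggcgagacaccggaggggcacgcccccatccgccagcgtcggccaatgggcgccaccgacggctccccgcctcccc
Hspa1a: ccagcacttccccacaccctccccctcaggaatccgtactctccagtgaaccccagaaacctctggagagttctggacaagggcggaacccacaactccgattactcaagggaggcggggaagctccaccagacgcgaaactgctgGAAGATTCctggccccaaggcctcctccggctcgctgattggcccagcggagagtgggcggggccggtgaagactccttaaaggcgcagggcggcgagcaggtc

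The shortened form TGACG was in the window of 6 of the 8 genes with an entry, and in 17.8% of all 32851 promoter windows of the same length. Nr4a1 held 4 copies, starting 233, 213, 69 and 40 bases before the start site. Fos held 2, at 129 and 66 bases, with a TATA box (TATAAA) at 33 bases. Btg2 alone held the full element, at 166 bases. That element was in 1.55% of all windows. The heat shock element was in the windows of Hspa1a, at 104 bases, and of Jun, at 128 bases, and in 6.69% of all windows. The AP-1 site and the CArG box were in none of the 8 windows, against 6.75% and 1.47% of all windows. Sequence outside these windows was not searched, and neither were the promoters of Egr1 and Ier2. These are matches of letters in one window. They are not a measurement of binding.

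All 10 genes were bright in every group. Their means over the 24 arrays ran from 8.60 for Ier2 to 12.10 for Atf3, the 94.0th to 99.8th percentile of gene means on these arrays, with the median gene at 4.66. Nr4a1 varied most over the arrays, by 2.97 from the lowest to the highest array, and Jun (0.986) and Atf3 (0.998) varied least. In standard deviation over the arrays Nr4a1 was at the 91.4th percentile of all genes, and the other 9 lay between the 46.7th and 72.9th. On the mean of the 10 genes, the groups ran between 10.15 in mutant luminal Sca1-negative cells and 10.98 in control basal GFP-positive cells.

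**Figure D1:**
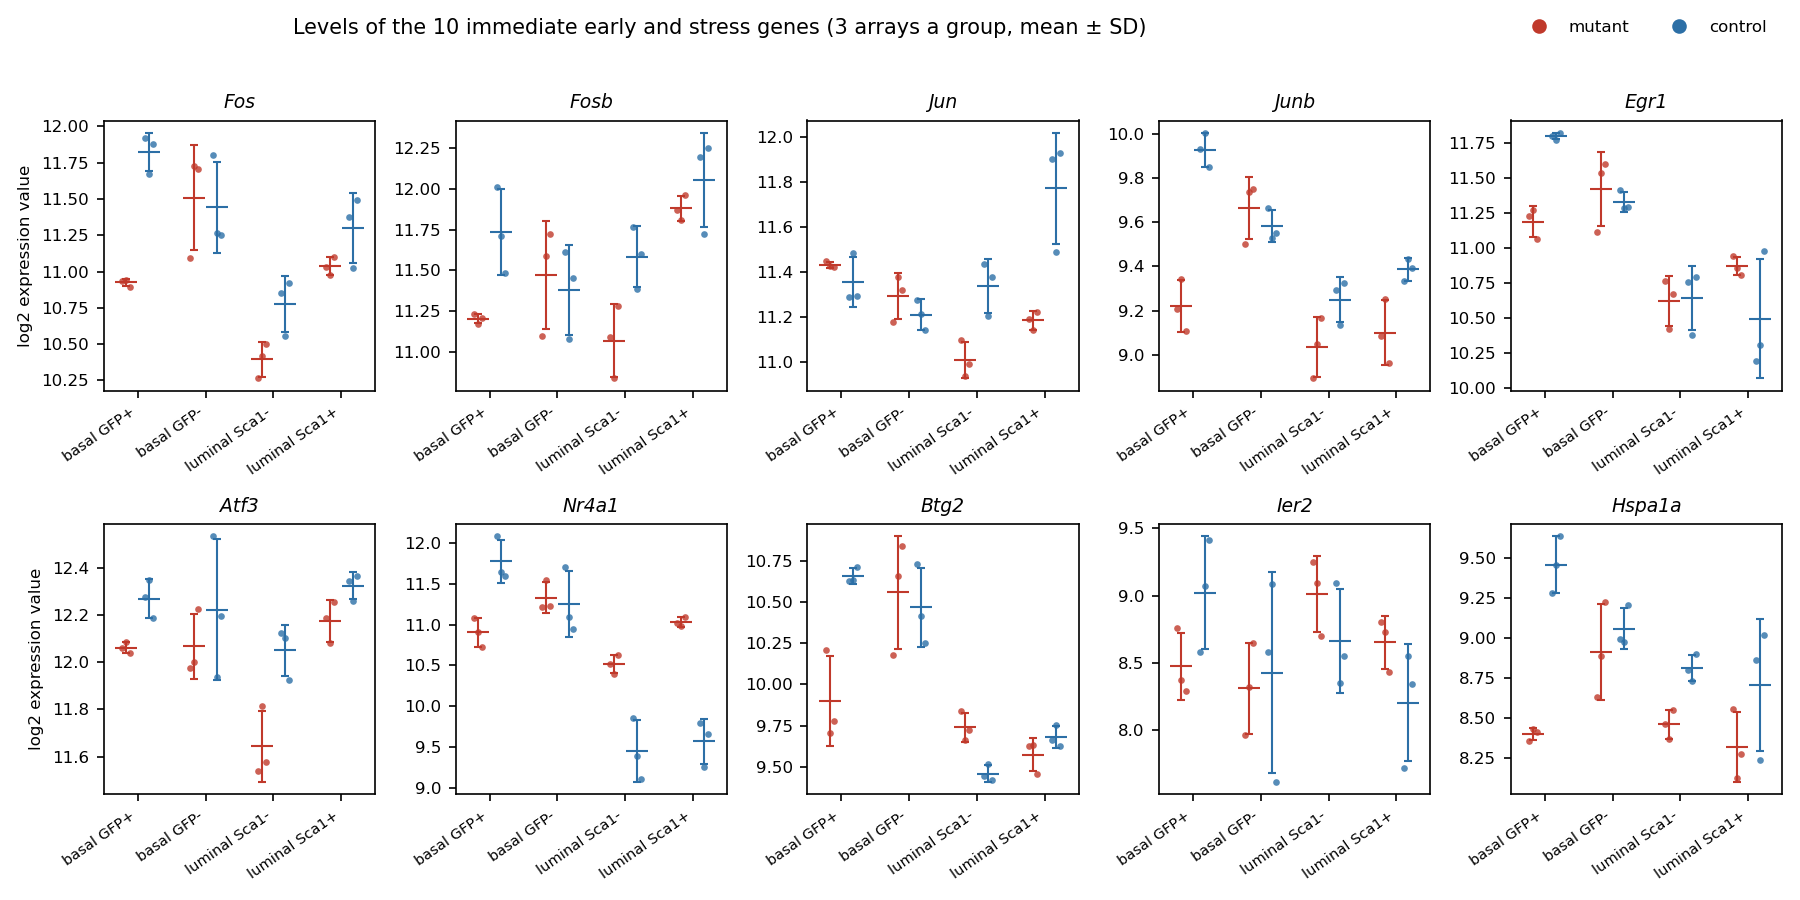
Levels of the 10 genes on every array. Each panel is 1 gene with its own log2 axis, points are arrays, and bars are the mean ± SD of 3 arrays, with mutant left of control in each sorted population. The mutant basal GFP-positive arrays lie below the control ones without overlap for 8 of the 10 genes, and Nr4a1 lies higher in both mutant luminal populations.

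The gates and arrays were checked first. Krt5, a basal keratin, averaged 11.53 to 11.92 in the 4 basal groups and 5.21 to 8.50 in the 4 luminal groups, highest in mutant Sca1-negative cells. Krt18, a luminal keratin, averaged 12.59 to 12.77 in the 4 luminal groups. It was also well above the median gene in the 4 basal groups, with 9.63 to 11.09. The keratins thus order the gates, but do not show that each gate was free of the other lineage. Of 10 measured leukocyte markers, 9 were below the median gene in each of the 8 groups, Ptprc among them, and Cd68 was the exception. The 3 arrays of control basal GFP-positive cells had the smallest spread: the standard deviation of their log2 values averaged 1.86, against 1.91 to 1.97 in the other 7 groups, and their dim genes averaged 4.07, against 3.94 for mutant basal GFP-positive cells. Their mean array weight in the weighted fit, 0.59, was the lowest, against 1.45 for mutant basal GFP-positive arrays. The comparison of mutant basal GFP-positive cells is therefore also given against control basal GFP-negative cells. The differences of effects that use these arrays have no such version.

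In basal GFP-positive cells, 6 of the 10 genes fell in the mutant and none rose. The 6 were Fos, Junb, Egr1, Nr4a1, Btg2 and Hspa1a. Over all genes 12.6% were called in either direction and 7.81% were called lower (limma, Benjamini-Hochberg adjusted p under 0.05). The median difference of the 10 genes was -0.66, against -0.10 over all genes, and 8 of the 10 had every mutant array below every control array, as did 25.2% of all genes. In pooled cells, fewer cells with a transcript and less RNA per cell cannot be told apart.

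Among the AP-1 genes, Fos had 10.94, 10.94 and 10.90 in mutant basal GFP-positive arrays, against 11.92, 11.67 and 11.88 in control ones. The mutant arrays lay within a narrow band below all control arrays, a log2 difference of -0.90 (standard error 0.17, adjusted p = 0.00347 by limma). Junb, the AP-1 subunit that can oppose JUN, had 9.21, 9.34 and 9.11 in mutant arrays and 9.930, 10.004 and 9.848 in control arrays. It again did not overlap, and differed by -0.71 (standard error 0.09, adjusted p = 0.000166 by limma). Fosb averaged 11.20 ± 0.03 in mutant and 11.74 ± 0.26 in control cells (SD, n = 3 each) and missed the threshold (-0.53, adjusted p = 0.0625 by limma), as did Atf3 with 12.06 ± 0.02 and 12.27 ± 0.08 (-0.21, adjusted p = 0.228 by limma). Jun, the main partner of FOS in AP-1, averaged 11.43 ± 0.01 in mutant and 11.35 ± 0.11 in control cells. Its difference was 0.08 (standard error 0.10, adjusted p = 0.610 by limma) and its groups overlapped.

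Egr1 had 11.23, 11.27 and 11.07 in mutant basal GFP-positive arrays, against 11.80, 11.78 and 11.82 in control arrays. The groups did not overlap and the difference was -0.61 (standard error 0.17, adjusted p = 0.0276 by limma). The Egr1 call ended with each array minus its own median (-0.51, adjusted p = 0.0889) and when either of 2 control arrays or any mutant array was left out. Nr4a1 had 11.08, 10.91 and 10.73 in mutant arrays and 12.08, 11.65 and 11.59 in control arrays. It was lower in all 3 mutant arrays, by 0.87 on the log2 scale in the mean (difference -0.87, standard error 0.20, adjusted p = 0.0137 by limma). Without control replicate 1 the Nr4a1 difference was -0.72 (adjusted p = 0.0578), and without mutant replicate 3 it was -0.78 (adjusted p = 0.0530). In a fit of the compared groups alone, Nr4a1 (adjusted p = 0.0923) and Btg2 (adjusted p = 0.0951) did not pass.

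Btg2, which is also a p53 target, had 10.21, 9.71 and 9.78 in mutant basal GFP-positive arrays and 10.63, 10.63 and 10.71 in control arrays. Mutant replicate 1 was the highest of its group, yet below all control arrays, and the difference was -0.76 (standard error 0.15, adjusted p = 0.00454 by limma). Ier2 had 8.76, 8.37 and 8.29 against 8.58, 9.07 and 9.42. Its groups overlapped and it did not pass (-0.55, standard error 0.32, adjusted p = 0.250 by limma). Hspa1a had 8.36, 8.43 and 8.42 in mutant arrays and 9.28, 9.46 and 9.63 in control arrays, a difference of -1.05 (standard error 0.17, adjusted p = 0.00103 by limma) and the largest among the 10 genes. Hspa1a has a near-identical neighbour, Hspa1b, whose RNA the probe set may also read. A further probe set that lists both genes differed likewise, with means of 10.43 ± 0.04 in mutant and 11.42 ± 0.22 in control arrays (-0.99, adjusted p = 0.0287 by limma over the 13120 probe sets outside the gene table).

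The split of all genes in this comparison moved with scaling. Of the 2504 genes called, 37.8% were higher in the mutant. With quantile normalised arrays 45.9% of called genes were higher (557 higher and 656 lower). With each array minus its own median 74.8% of 1323 called genes were higher, and the median of all genes moved to 0.00. Under that scaling Fos, Junb, Nr4a1, Btg2 and Hspa1a kept their calls as lower genes. The leukocyte list was lower in mutant than in control basal GFP-positive arrays, with list means of 4.16 to 4.18 against 4.32 to 4.42, and 9 of its 10 measured genes were below the median gene in both groups. Csf1r was its 1 called gene, and was lower. Of 5 luminal progenitor markers 3 were higher in the mutant and none lower, with a median difference of 2.36. Their mean was 7.17 to 7.34 in mutant and 4.58 to 5.39 in control arrays, and Csn3, a milk casein gene, averaged 10.98 ± 0.04 and 5.35 ± 1.57 (SD, n = 3 each). Kit, one of the 5, was below the median gene in both groups. Of 6 fibroblast markers 2 were higher, among them Dcn with 11.11 ± 0.23 in mutant and 6.80 ± 0.12 in control cells (SD, n = 3 each). The list mean was 5.62 to 5.85 against 4.91 to 5.11, but the median difference of the 6 was -0.01. Of the 6 markers, 3 had a lower mean in the mutant. Dcn was not low in all luminal cells, with 11.53 ± 0.39 in control luminal Sca1-positive cells (SD, n = 3). Of 7 luminal and 7 basal markers none was called. The part of array quality and of these other transcripts in the differences of the 10 genes was not tested. The spread of the arrays and the mean of the 10 genes are plotted against each other, with the control basal GFP-positive arrays at one end.

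**Figure D2:**
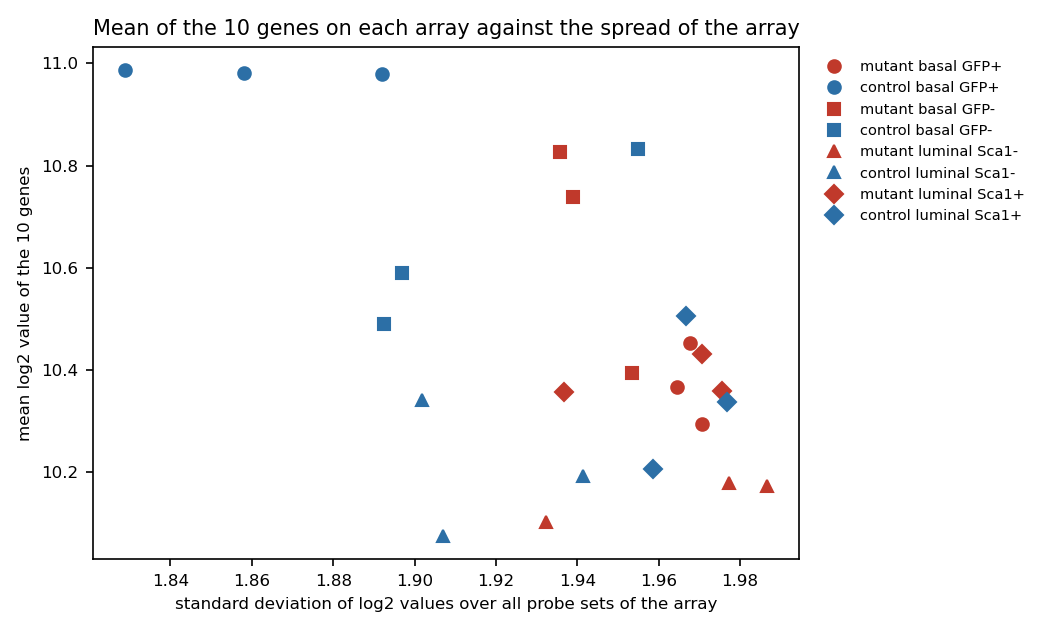
Mean log2 level of the 10 genes on each array (vertical axis) against the standard deviation of all log2 values of that array (horizontal axis), 24 points, colour for genotype and shape for sorted population. The 3 control basal GFP-positive arrays lie at 10.98 to 10.99 with the lowest standard deviations, and the 3 mutant basal GFP-positive arrays at 10.29 to 10.45.

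Set against control basal GFP-negative cells instead, mutant basal GFP-positive cells had 3 of the 10 genes lower and none higher (3.22% of all genes were called in either direction). These were Junb (-0.36, adjusted p = 0.0426), Btg2 (-0.57, adjusted p = 0.0443) and Hspa1a (-0.66, adjusted p = 0.0435), all by limma. The probe set that lists both Hspa1a and Hspa1b differed by -0.27 here and did not pass (adjusted p = 0.683 by limma). With the replicate number as a block Btg2 did not pass (adjusted p = 0.0591). Fos had 11.81, 11.27 and 11.25 in control basal GFP-negative arrays, above all 3 mutant GFP-positive arrays, but did not pass (-0.52, adjusted p = 0.119 by limma). The median of the 10 genes was -0.26, against -0.06 over all genes. All 3 calls ended with each array minus its own median, with adjusted p between 0.0569 and 0.0902, and leaving out any 1 array left 0 or 1 gene called.

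In basal GFP-negative cells, none of the 10 genes differed between mutant and control at the threshold (0.0602% of all genes did). Their differences ran from -0.16 for Atf3 to 0.09 for Btg2, with a median of 0.08 against -0.03 over all genes. None of the 10 separated the groups, and 10.5% of all genes did. The smallest unadjusted p of the 10 was 0.200, for Atf3 (limma). Fos had 11.09, 11.73 and 11.71 in mutant and 11.81, 11.27 and 11.25 in control arrays. Each group held 1 array apart from its other 2, low in the mutant and high in the control, and the same arrays, mutant replicate 1 and control replicate 1, were the lowest and the highest of their groups for Egr1, Junb and Btg2. The mean of the 10 genes was 10.39, 10.74 and 10.83 in mutant and 10.83, 10.59 and 10.49 in control arrays.

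The mutant effect in GFP-positive cells minus that in GFP-negative basal cells was negative for all 10 genes, with a median of -0.74 against -0.07 over all genes. It passed for 1 gene, Junb (-0.79, standard error 0.13, adjusted p = 0.00538 by limma), and 1.07% of all genes were called. Of the called genes 72.0% were higher, and 82.6% with each array minus its own median. Fos (-0.97, adjusted p = 0.0648), Btg2 (-0.85, adjusted p = 0.0636) and Hspa1a (-0.91, adjusted p = 0.0881) missed the threshold in this test by limma. In a fit of the compared groups alone the Junb difference did not pass (adjusted p = 0.0599). Without mutant basal GFP-negative replicate 1 or without control basal GFP-negative replicate 1, 4 genes passed.

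**Figure D3:**
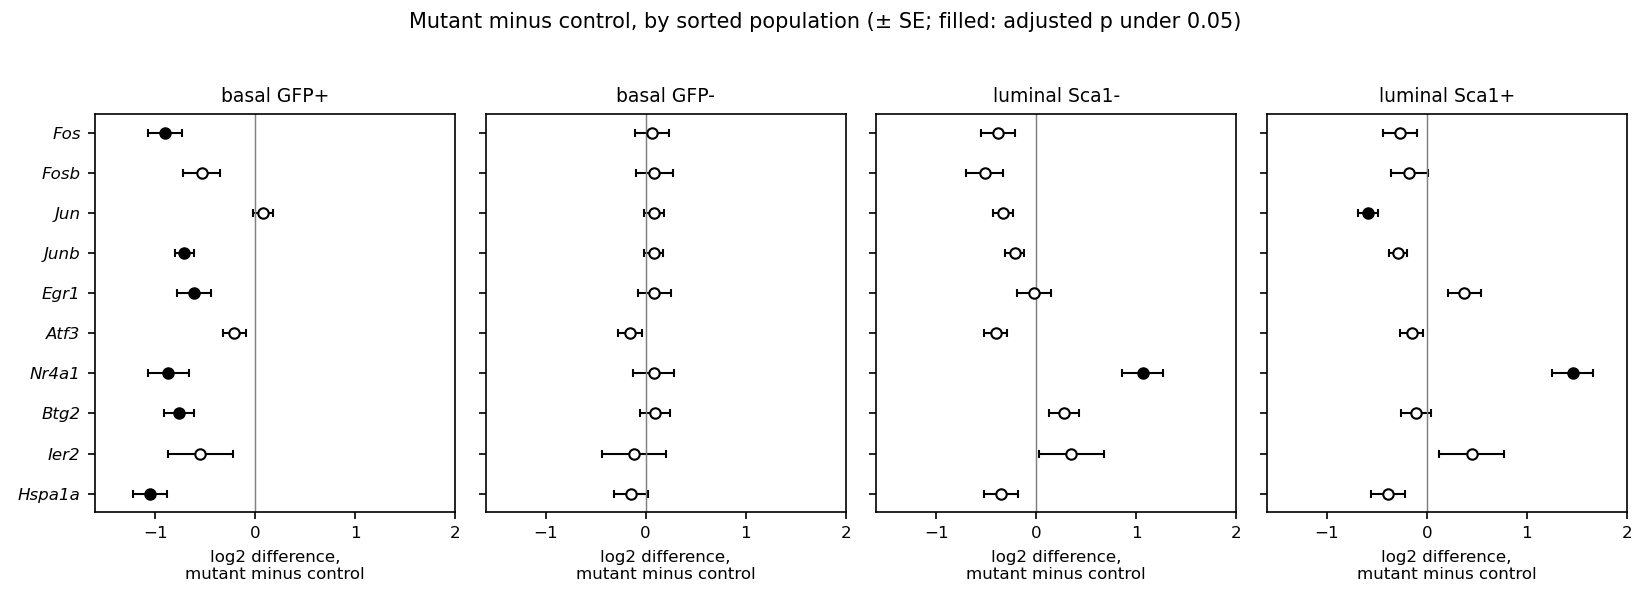
Mutant minus control log2 difference of each of the 10 genes in the 4 sorted populations, with bars for the standard error of the fit and filled points for adjusted p under 0.05. Filled points are Fos, Junb, Egr1, Nr4a1, Btg2 and Hspa1a in basal GFP-positive cells, Nr4a1 in luminal Sca1-negative cells, and Jun and Nr4a1 in luminal Sca1-positive cells.

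The GFP gate was also compared within each genotype. In mutant basal cells 8 of the 10 genes had a lower mean in GFP-positive than in GFP-negative cells, and 2 passed. GFP-positive cells had less Junb (-0.44, adjusted p = 0.0134 by limma) and less Btg2 (-0.66, adjusted p = 0.0209 by limma), and none of the 10 genes was higher (2.51% of all genes were called). Junb stood at 9.22 ± 0.12 in GFP-positive and 9.66 ± 0.14 in GFP-negative cells, without overlap, and Btg2 at 9.90 ± 0.27 and 10.56 ± 0.34, with overlap (SD, n = 3 each). In control basal cells all 10 genes had a higher mean in GFP-positive than in GFP-negative cells, by 0.05 to 0.60, but none passed (1.25% of all genes did). The smallest p of the 10 there was that of Junb (0.35, adjusted p = 0.0780 by limma). With quantile normalised arrays Junb passed (0.46, adjusted p = 0.0248). In that comparison 40.4% of called genes were higher, and 22.0% with each array minus its own median. Lgr5 itself averaged 9.47 ± 0.46 in control GFP-positive and 8.07 ± 0.92 in control GFP-negative cells, and 6.30 ± 0.90 and 7.34 ± 0.19 in the mutant (SD, n = 3 each).

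In luminal cells Nr4a1 was higher in the mutant, the opposite sign to basal GFP-positive cells. In luminal Sca1-negative cells it had 10.52, 10.40 and 10.63 in mutant arrays, against 9.86, 9.39 and 9.11 in control arrays. All mutant arrays were higher, and the difference was 1.06 (standard error 0.20, 2.09-fold, adjusted p = 0.0148 by limma). Nr4a1 was the 1 of the 10 genes called, in a comparison where 0.727% of all genes were called. In luminal Sca1-positive cells Nr4a1 had 11.02, 10.98 and 11.09 in mutant arrays and 9.79, 9.26 and 9.65 in control arrays. The groups were more than 1 log2 unit apart at their nearest arrays, with a difference of 1.46 (standard error 0.20, 2.76-fold, adjusted p = 0.000667 by limma). Jun was called lower there, with 11.19, 11.14 and 11.22 in mutant and 11.90, 11.49 and 11.93 in control arrays (-0.59, standard error 0.10, adjusted p = 0.00452 by limma). These were the 2 of the 10 genes called in luminal Sca1-positive cells, against 0.777% of all genes.

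The other genes of the set did not pass in the luminal comparisons. In Sca1-negative cells Fos, Fosb, Jun, Atf3 and Hspa1a had all mutant arrays below all control arrays and Btg2, like Nr4a1, all above. Non-overlap in either direction held for 18.1% of all genes. The 9 differences other than that of Nr4a1 ran from -0.51 for Fosb to 0.35 for Ier2, and the median of all 10 was -0.27 against -0.04 over all genes. Atf3 had 11.54, 11.82 and 11.58 in mutant and 12.12, 12.10 and 11.93 in control arrays (-0.41, adjusted p = 0.145 by limma). In Sca1-positive cells Nr4a1 was above without overlap and Jun, Junb and Atf3 below, while 15.7% of all genes did not overlap, and the median of the 10 was -0.16 against 0.00 over all genes. Junb had 9.08, 9.25 and 8.96 in mutant and 9.33, 9.43 and 9.39 in control arrays without overlap (-0.29, adjusted p = 0.276 by limma). The luminal calls depended on the shared spread of the 8 groups: in fits of the compared groups alone Nr4a1 had an adjusted p of 0.188 in Sca1-negative cells and 0.0687 in Sca1-positive cells, and Jun 0.299. The Nr4a1 call in Sca1-negative cells also ended without control replicate 2 or 3 or mutant replicate 1 or 3, with adjusted p of 0.0570 to 0.0780.

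Basal transcripts moved with the Nr4a1 result in luminal Sca1-negative cells. Nr4a1 is higher in basal than in luminal control cells, as given below, and 3 of 7 basal markers were higher in mutant luminal Sca1-negative cells. The mean of the 7 markers was 6.79, 6.86 and 7.33 in these mutant arrays and 5.46, 5.28 and 5.22 in control arrays, and Krt5 averaged 8.50 ± 0.52 and 5.21 ± 0.27 (SD, n = 3 each). The part of basal transcripts in that result was not tested. In luminal Sca1-positive cells none of the 7 basal markers was called. There the marker mean was 6.75, 5.41 and 5.45 in mutant arrays, against 5.34 to 5.47 in control arrays. Krt5 was 7.98, 5.18 and 6.28 in these mutant arrays and 5.08, 5.36 and 5.51 in control arrays. The part of basal transcripts in the Sca1-positive result was not tested either.

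NR4A1 has a pair of close relatives, NR4A2 and NR4A3, which are immediate early genes too. Nr4a2 had 6.96, 5.48 and 6.10 in mutant luminal Sca1-positive arrays and 4.33, 4.33 and 4.26 in control arrays, a difference of 1.87 (standard error 0.31, adjusted p = 0.00350 by limma). In the control arrays it was below the median gene. Nr4a3 had 7.15, 7.14 and 7.57 in mutant and 5.10, 5.52 and 6.41 in control arrays (1.61, standard error 0.31, adjusted p = 0.0129 by limma). All 3 NR4A receptors were thus higher in mutant luminal Sca1-positive cells, with no overlap. Luminal progenitor markers, whose mean is higher in control luminal Sca1-negative (9.27 to 9.86) than in Sca1-positive arrays, moved with this result. The mean of the 5 was 6.91 to 8.80 in mutant and 6.20 to 6.51 in control Sca1-positive arrays, with a median difference of 1.58 against 0.00 over all genes, and 1 was called, Aldh1a3, with 7.63 ± 0.45 and 5.06 ± 0.20 (SD, n = 3 each). Their part in the result was not tested. In luminal Sca1-negative cells Nr4a2 was 7.74 to 8.03 in mutant and 6.27 to 7.47 in control arrays, and Nr4a3 8.06 to 8.72 and 6.95 to 7.44. These did not overlap either but were not called. In basal GFP-positive cells, where Nr4a1 was lower in the mutant, Nr4a2 averaged 8.70 ± 0.25 in mutant and 8.35 ± 0.45 in control cells and Nr4a3 9.54 ± 0.50 and 8.95 ± 0.20 (SD, n = 3 each), and neither was called.

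**Figure D4:**
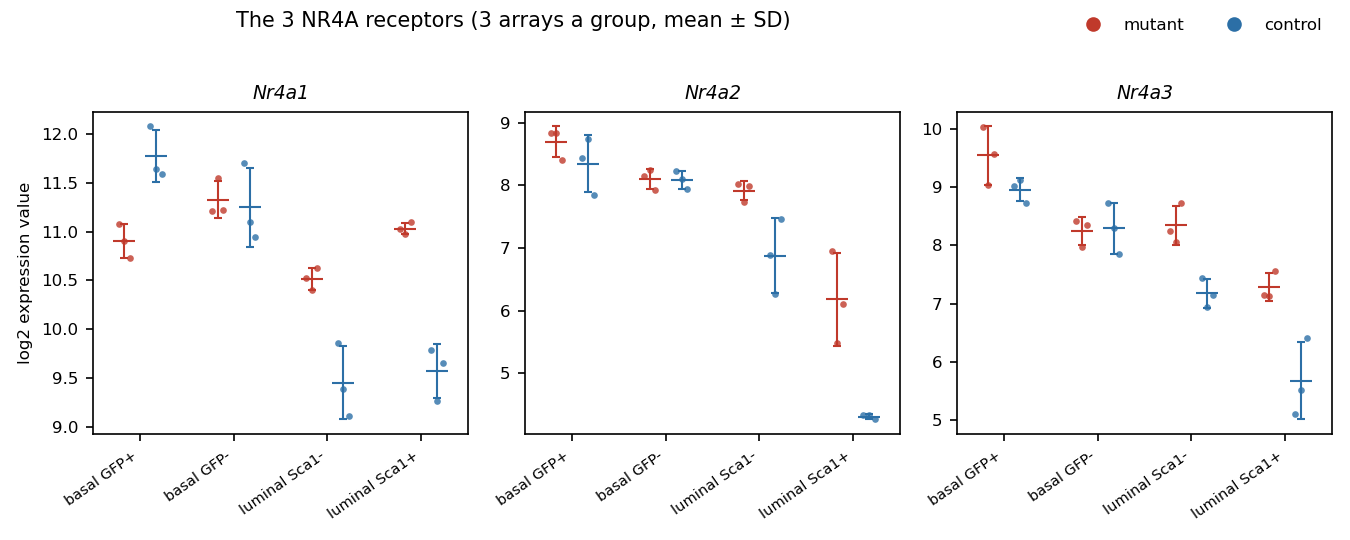
Levels of the 3 NR4A receptors on every array. Each panel has its own log2 axis, points are arrays and bars are the mean ± SD of 3 arrays, with mutant left of control. In luminal Sca1-positive cells all 3 are higher in the mutant, whereas in basal GFP-positive cells Nr4a1 alone is called, and is lower.

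The difference between these effects was tested directly. The mutant effect in luminal Sca1-negative cells minus that in basal GFP-positive cells was 1.93 for Nr4a1 (standard error 0.29, adjusted p = 0.00147 by limma) and 1.04 for Btg2 (standard error 0.21, adjusted p = 0.0200 by limma). These were the 2 of the 10 genes called, both higher, and 1.03% of all genes were called. The Nr4a1 call held in all 19 alternative fits run, with differences of 1.76 to 2.14. Between the luminal populations the mutant effect differed at the threshold for none of the 10 genes, and 0.161% of all genes were called. The smallest unadjusted p of the 10 in that test was 0.0829, for Btg2 (limma). For Nr4a1 the difference was 0.40 (standard error 0.29, adjusted p = 0.826 by limma).

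Levels also differed between basal and luminal cells. For Egr1 the lowest basal array (11.07) was above the highest luminal array (10.98), over all 12 arrays of each kind. The ranges of the other 9 genes overlapped between basal and luminal arrays. The share of all genes that separate basal from luminal arrays was not computed, so the Egr1 ranges have no background to be set against. In control cells, luminal Sca1-negative against basal GFP-negative, 5 of the 10 genes were lower and none higher, and 9.83% of all genes were called. Nr4a1 had 9.45 ± 0.38 in luminal and 11.25 ± 0.40 in basal cells (-1.80, standard error 0.20, adjusted p = 7.49e-06 by limma), and Btg2 9.46 ± 0.05 and 10.47 ± 0.24 (-1.01, adjusted p = 0.000142 by limma). Fos (-0.67), Egr1 (-0.69) and Junb (-0.33) were the other 3, with adjusted p between 0.0122 and 0.0312 by limma. Hspa1a, with -0.25, did not pass.

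In mutant cells, with luminal Sca1-negative set against basal GFP-positive ones, 3 of the 10 genes were lower and none higher (7.86% of all genes were called). These were Jun (-0.42, adjusted p = 0.0101), Egr1 (-0.57, adjusted p = 0.0457) and Atf3 (-0.42, adjusted p = 0.0321), all by limma. Egr1 was called in both comparisons of lineages. Its call in the mutant one ended when any 1 of the compared arrays was left out, with adjusted p of 0.0567 to 0.200 by limma. Nr4a1 averaged 10.52 ± 0.12 in mutant luminal and 10.90 ± 0.18 in mutant basal cells (-0.39, adjusted p = 0.366 by limma), and Btg2 9.74 ± 0.09 and 9.90 ± 0.27. The GFP state of the basal cells is not the same in these comparisons. Leaving out any 1 array left 1 gene called in the mutant comparison.

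Between the mutant luminal populations, Fos, Fosb and Atf3 were higher in Sca1-positive cells. In mutant luminal cells Fos had 11.03, 10.98 and 11.10 in Sca1-positive and 10.26, 10.42 and 10.50 in Sca1-negative arrays (0.64, adjusted p = 0.0419 by limma). Fosb had 11.87, 11.81 and 11.96 against 11.09, 10.84 and 11.28 (0.81, adjusted p = 0.0166 by limma), and Atf3 differed by 0.53 (adjusted p = 0.0133 by limma). None of the 10 genes was called lower, and 3.66% of all genes were called. Btg2 (-0.17), Ier2 (-0.36) and Hspa1a (-0.14) had lower means in Sca1-positive cells without passing. In control luminal cells Jun was the 1 gene called (0.43, adjusted p = 0.0191 by limma), against 3.69% of all genes, and Fos (0.52) and Fosb (0.47) had the same sign without passing. Leaving out 1 array gave 0 to 2 called genes in the mutant and 0 or 1 in the control comparison.

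By group means, the order of levels put control basal GFP-positive cells first for 7 of the 10 genes. They were Fos, Junb, Egr1, Nr4a1, Btg2, Ier2 and Hspa1a. Nr4a1 went down from there through mutant basal GFP-negative (11.33), control basal GFP-negative (11.25), mutant luminal Sca1-positive (11.03), mutant basal GFP-positive (10.90), mutant luminal Sca1-negative (10.52), control luminal Sca1-positive (9.57) and control luminal Sca1-negative cells (9.45). Of these neighbours, the arrays overlapped between mutant and control basal GFP-negative, control basal GFP-negative and mutant luminal Sca1-positive, mutant luminal Sca1-positive and mutant basal GFP-positive, and the 2 control luminal groups. For Ier2 no neighbours in the order were separated. Fosb, Jun and Atf3 were highest in control luminal Sca1-positive cells, with means of 12.06, 11.77 and 12.33.

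The 10 genes varied together to a moderate degree. Over the 24 arrays 36 of their 45 pairs had a Pearson correlation above 0, with a median of 0.33, and the mean over pairs was 0.35 against 0.02 over all pairs of genes. On deviations from the group means, which leave out differences between groups, 42 pairs were above 0, with a median of 0.34 (n = 24 arrays). The points share the amplification and the scale of each array. Pairs of genes at or above the median level had a mean of 0.002 on the same deviations. Most of those genes are dimmer than the 10, and no set matched in level was computed. The part of shared amplification and scale in the correlations of the 10 genes was not tested. Ier2 joined least, with a mean correlation of 0.11 with the other 9 on deviations, and Fos most, with 0.51.

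The genes outside the set whose pattern was most like the mean of the 10 over the 24 arrays were Nox4, an NADPH oxidase (Pearson 0.88), Pygb (0.88), Ntn4 (0.87), Lgr5 (0.86) and Ptpn14 (0.86), followed by Dchs1, Grik3, Tppp3, Plxna4 and Stac2 (0.83 to 0.85). On deviations from the group means they were Grik3 (0.89), Stat3 (0.82), Ly6e (0.81), Cradd (0.80), Ifitm2 (0.80) and Csrnp1 (0.80), then Med19, Zfp953, Cck and Trib1 (0.75 to 0.77). Csrnp1 is itself an early response gene. Both lists are descriptions over 24 arrays that share 8 groups. With quantile normalised arrays 9 of the first 10 and 5 of the second 10 genes stayed on their lists.

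Related genes were taken from lists by role, and their counts stand beside 12.6% of all genes called in the first comparison. In mutant basal GFP-positive cells, of 10 other AP-1 and ATF factors 2 fell and none rose against control: Batf, a partner of JUN proteins (-1.69, adjusted p = 0.00209), and Maff, a small MAF protein (-0.85, adjusted p = 0.00266). Of 10 other EGR, NR4A and KLF factors 1 rose, Klf6 (0.59, adjusted p = 0.0216). Of 20 feedback and early response genes 3 rose, among them the small GTPase Rhob (0.92, adjusted p = 0.0104) and Ier5 (0.84, adjusted p = 0.0201), and 1 fell, Cebpd (-1.17, adjusted p = 0.0116). None of 12 measured other heat shock proteins changed, and their median was 0.21, against -0.10 over all genes. Of 13 measured upstream regulators 2 rose, the heat shock factor Hsf2 (1.70, adjusted p = 0.00518) and Mapk8, which encodes the JUN kinase JNK1 (1.09, adjusted p = 0.0272), and none fell. All of these are from limma.

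Compared with the GFP-negative gate, mutant GFP-positive basal cells had 3 of the 12 heat shock proteins higher and none lower, where 2.51% of all genes were called, among them Hspa5, the chaperone of the endoplasmic reticulum (0.43, adjusted p = 0.0273), and Bag3, an HSP70 cochaperone (0.98, adjusted p = 0.0384). Nr4a3 (1.30, adjusted p = 0.0284), Klf6 (0.64, adjusted p = 0.0339), Hsf2 (2.11, adjusted p = 0.00132) and Nfkbia, the inhibitor of NF-kappa-B (0.75, adjusted p = 0.0412), were higher as well, and Cebpd was lower (-1.27, adjusted p = 0.0127). Set against the control GFP-negative gate, where 3.22% of all genes were called, Hsf2 was higher too (2.24, adjusted p = 0.000613), as were Mapk8 (1.56), Klf6 (1.11), Nr4a3 (1.25), Nfkbia (0.93), Fosl1 (1.54) and Dnajb4 (0.89), whereas Creb1 (-1.03), Maff (-0.67) and Cebpd (-1.22) were lower. All of these passed in limma, and Junb and Btg2 were lower in both comparisons.

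In the luminal and basal GFP-negative mutant comparisons under 1% of all genes were called (0.777% in luminal Sca1-positive, 0.727% in luminal Sca1-negative and 0.0602% in basal GFP-negative cells). In luminal Sca1-positive cells Nr4a2 and Nr4a3 rose and Klf2 fell (-0.77, adjusted p = 0.0235 by limma) among the 10 EGR, NR4A and KLF factors. Ccn2, a target of YAP and serum response factor signals, rose (0.99, adjusted p = 0.0314 by limma), 1 of 20 feedback genes. In luminal Sca1-negative cells none of these lists had a member that passed. In basal GFP-negative cells 1 did, Elk1, an ETS partner of serum response factor (1.62, adjusted p = 0.0324 by limma).

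Related genes were also compared between lineages. In control luminal Sca1-negative against basal GFP-negative cells, with 9.83% of all genes called, 7 of 20 feedback genes were higher and 5 lower, 3 of 10 AP-1 and ATF factors were higher and none lower, and 2 of 10 EGR, NR4A and KLF factors were higher and 3 lower. Egr2, a relative of Egr1, was lower (-2.75, adjusted p = 0.000130), as were Ccn2 (-2.57, adjusted p = 1.45e-07) and Socs3 (-2.48, adjusted p = 5.01e-05). Klf6 (1.52), Ier5 (1.88), Nfkbia (1.45) and Fosl1 (2.32) were higher, as were Mafk (1.19) and Klf2 (0.77), and Nr4a2 (-1.21) was lower. The heat shock list went both ways, with Hspa5 (0.57) and Dnajb4 (0.69) higher and Hsph1 (-1.08) and Hspb8 (-1.76) lower. So did the upstream regulators, with Mapk8 (1.22) higher and Elk3 (-1.31) lower. In the mutant comparison, whose basal cells are the GFP-positive ones, 5 of 20 feedback genes were higher and 4 lower (7.86% of all genes were called). There Egr2 (-2.52, adjusted p = 0.000332), Ccn2 (-2.89, adjusted p = 3.04e-08), Socs3 (-1.94), Nr4a3 (-1.20), Mrtfa (-0.99) and Hspb8 (-2.63) were lower and Fosl1 (1.41), Mafk (1.15), Cebpd (1.28) and Ier5 (0.99) higher. Between luminal populations, Sca1-positive over Sca1-negative, 3.66% of all genes were called in mutant and 3.69% in control cells. Nr4a2 was lower in mutant (-1.74) and control (-2.57) cells, as were Ccn2 (-1.78 and -3.04) and Cebpd (-1.91 and -2.17). Gadd45g (1.57 and 1.92), Hspb8 (2.73 and 2.61) and Dnajb4 (0.73 and 0.84) were higher. Called in control cells only, the heat shock genes Hsph1 (-1.17) and Hspa8 (-0.28) were lower, as was Egr2 (-2.31), and Klf2 (0.91) and Elk1 (1.19) were higher. All passed in limma. Fos, Fosb and Atf3 on one side and Nr4a2 on the other thus differed in opposite directions between the mutant luminal populations.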

How the data were processed

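RNA of 250 sorted cells per array was amplified and hybridised to 24 mouse Gene 1.0 ST arrays. The deposited table holds the authors' log2 expression value per probe set and array. The affy package is named in the submitters' processing notes, with no version or role. The background correction, normalization and genome build used for the values are not given in the sources used here. Deposited values ran from 2.59 to 13.54 and array medians from 4.39 to 4.55, and arrays of 1 group correlated at 0.93 to 0.98.

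Of 34760 probe sets, 21640 listed 1 symbol, giving 19937 genes. For the 954 genes with several, the probe set with the highest mean was used. A limma fit of 8 group means (16 residual degrees of freedom) tested 11 pairs of groups and 3 differences of effects, two-sided. P-values were adjusted by Benjamini-Hochberg over all genes within a comparison and called under 0.05. R 4.3.3 and limma 3.58.1 were used, and the code was tested on simulated data. Each replicate is 1 sorted pool of mice, and p-values measure the spread between pools, and 3 arrays a group limit the precision.

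The 10 genes and all lists were chosen with earlier results of these data known. All 10 are named. Per role list and comparison, up to 2 called genes each way with the smallest p are named, and Csf1r, Csn3, Dcn and Aldh1a3 were named from the marker lists after their values were seen. The 10 genes most like the mean of the set are ranked by Pearson correlation, leaving out predicted genes, clones, olfactory receptors and small RNAs. Cyr61, Ctgf, Mkl1 and Mkl2 were found under newer symbols (Ccn1, Ccn2, Mrtfa and Mrtfb). List genes that no probe set gave as its only symbol, Hspa1b and Hsp90ab1 among them, were not analysed here. Promoter sequences are RefSeq's.

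Alternatives were a fit of the compared groups only, quantile normalization, leaving out dim genes, array weights, averaging the probe sets of a gene, the replicate number as a block, leaving out the control basal GFP-positive arrays, each array minus its median, and leaving out each array in turn. Same-numbered arrays of compared groups did not deviate together in every pair: in each comparison at least 1 of the 3 correlations was under 0.1, so the numbers were not taken to pair the arrays.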

Additional observations from a re-analysis of the deposited data

Results flagged for a closer look

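In 3 cases the mutant effect differed between sorted populations by a direct test in limma. For Junb the mutant effect in basal GFP-positive cells minus that in basal GFP-negative cells was -0.79 (standard error 0.13, adjusted p = 0.00538). Its mutant minus control difference was -0.71 in GFP-positive and 0.08 in GFP-negative cells, and all 3 mutant arrays were below all 3 control arrays in the first of these. For Nr4a1 the mutant effect in luminal Sca1-negative cells minus that in basal GFP-positive cells was 1.93 (standard error 0.29, adjusted p = 0.00147), with differences of 1.06 and -0.87 and no overlap of arrays in either. For Btg2 the same difference of effects was 1.04 (standard error 0.21, adjusted p = 0.0200), with 0.28 in luminal Sca1-negative and -0.76 in basal GFP-positive cells. The Btg2 call ended without control luminal Sca1-negative replicate 3 (1.02, adjusted p = 0.0508), without mutant basal GFP-positive replicate 2 (0.94, adjusted p = 0.0604) and without mutant basal GFP-positive replicate 3 (0.98, adjusted p = 0.0516).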

How the results depend on the processing

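Of the 29 differences of the 10 genes called in the report, 6 kept their call under every alternative run, 23 lost it under at least 1, and none changed sign. The 6 were Fos, Junb and Hspa1a in mutant against control basal GFP-positive cells, Nr4a1 and Btg2 in control luminal Sca1-negative against basal GFP-negative cells, and the Nr4a1 difference of effects between luminal Sca1-negative and basal GFP-positive cells.

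In a fit of the compared groups only, which has fewer arrays, the number of the 10 genes called was 4 in place of 6 for mutant against control basal GFP-positive cells, 0 in place of 1 for luminal Sca1-negative cells, 0 in place of 2 for luminal Sca1-positive cells, 1 in place of 3 for mutant basal GFP-positive against control basal GFP-negative cells, 0 in place of 2 for the GFP gate in mutant basal cells, 3 in place of 5 for control luminal against basal cells, 1 in place of 3 and 0 in place of 1 for the Sca1 gate in mutant and control cells, and 0 in place of 1 for the basal difference of effects. With dim genes left out it was 1 in place of 3, 1 in place of 2 and 0 in place of 1 for mutant basal GFP-positive against control basal GFP-negative cells, the GFP gate in mutant cells and the Sca1 gate in control cells. With each array minus its median, a setting chosen after seeing the data, mutant basal GFP-positive against control basal GFP-negative cells had 0 in place of 3. With quantile normalization the GFP gate in control cells had 1 in place of 0 and the basal difference of effects 3 in place of 1, and with array weights the last had 2. These are the counts that moved by over 1.5 times, with the first one added. Counts that moved by 1 gene and stayed within 1.5 times include 5 in place of 6 for mutant against control basal GFP-positive cells with each array minus its median, and 2 in place of 3 for mutant and 4 in place of 5 for control luminal against basal cells with dim genes left out. The cause of these changes was not tested, beyond the smaller number of arrays in the first fit.

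Leaving out 1 array gave 4 to 6 called genes for mutant against control basal GFP-positive cells, 0 for basal GFP-negative, 0 to 1 for luminal Sca1-negative and 2 for luminal Sca1-positive cells. It gave 0 to 1 for mutant basal GFP-positive against control basal GFP-negative cells, and 0 to 3 and 0 for the GFP gate in mutant and control cells. It gave 1 for mutant and 2 to 5 for control luminal against basal cells, 0 to 2 and 0 to 1 for the Sca1 gate in mutant and control cells, and 1 to 4, 0 and 1 to 2 for the 3 differences of effects, basal, luminal and luminal minus basal.

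With the replicate number as a block, mutant basal GFP-positive against control basal GFP-negative cells had 2 called genes in place of 3 (Btg2 -0.57, adjusted p = 0.0591), and no other count of the 10 genes changed. That fit called 2350 of all genes in mutant against control basal GFP-positive cells, against 2504 without it. Every array correlated best with its own number in 5 of the 11 pairs of groups, a hint from the data. The glands were sorted in 3 independent sortings, and the labels do not say that a number marks a sorting.

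Over all genes, the fit of the compared groups only called 234 in place of 2504 for mutant against control basal GFP-positive cells, 34 in place of 145 for luminal Sca1-negative, 8 in place of 155 for luminal Sca1-positive and 0 in place of 12 for basal GFP-negative cells. For the first comparison the other settings gave 1007 to 2542 and leaving out 1 array 1034 to 3979. For the GFP gate in control cells these were 0 in place of 250, then 32 to 259 and 104 to 1126.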
